A study of Mus musculus with 47 samples.

Results

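The DN2a and DN2b stages of normal mouse T-cell development were compared in 6 of the series' 47 RNA-seq libraries, 4 staged DN2a and 2 staged DN2b. The members were all untreated fetal liver cultures without Cre virus that were grown on OP9-DL1, a stromal line that presents the Notch ligand Delta-like 1. Libraries that had received GSI, an inhibitor of the gamma-secretase that cleaves activated Notch, were left out and served only as a reference. The study as a whole examined the transcription factor Bcl11b, and these 6 libraries hold its normal cells on either side of the commitment step. The treatment protocol names normal B6 fetal liver precursors for the GSI experiments, and the 6 libraries carry the label of controls for Bcl11b knockout. The general growth protocol adds Flt3L and IL-7 to such cultures. For the Cre-treated cultures the protocol gives a DN2a gate of very high Kit and a DN2b gate of intermediate Kit, both CD25+ CD45+ Lin-, and the gate of the libraries used here is not stated separately.

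The libraries are called DN2a 1 to DN2a 4 and DN2b 1 and DN2b 2. Titles of DN2a 1, DN2a 2 and DN2a 3 each join 2 dates, so each may pool 2 sorts. Culture day is given as 8.5 for DN2a 3 and both DN2b libraries and as 4.5 for DN2a 4, and no day is given for DN2a 1 and DN2a 2. DN2b 1 is titled DN3 but its stage label is DN2b, and the deposited table also names its column DN3. It is called DN2b here by its stage label, and values without it are given below.

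Early T-cell precursors enter the thymus with the potential to become other blood cells. DN2a cells still express Kit and progenitor transcription factors, while DN2b cells have begun to express Bcl11b, CD3 chains and the pre-T-cell receptor machinery and have largely lost access to other fates. Notch signalling from Delta ligands drives the process throughout.

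Of 13364 genes tested, 1799 (13.5%) had an adjusted p under 0.05 in limma's moderated test on log2(FPKM + 1) and are called different. In DN2a, 565 (4.23%) were higher and 1234 (9.23%) lower. At 2-fold or more the counts were 331 (2.48%) higher and 729 (5.45%) lower. The median difference over all genes tested was -0.07 on the log2 scale. Quantile normalization moved it by 0.12 and changed the split to 692 higher and 580 lower, so the excess of lower genes depends on scaling. The DN2a libraries lay wholly above the DN2b libraries for 2403 genes (18%) and wholly below them for 3618 (27.1%).

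The number of calls depended on single libraries. It was 35 (32 higher and 3 lower) without DN2b 1, 410 without DN2b 2, 234 without DN2a 4 and 1184 without DN2a 2, while it was 1406 and 1247 without DN2a 1 and DN2a 3. Within the 4 libraries of the earlier title year it was 68, and with the letter that column names share held as a term it was 1142. Of the 82 named genes that were called, 14 stayed called without each library in turn, namely Gfi1b, Itga2b, Mycn, Hbb-b2, Tyrobp, Prtn3, Fgf3, Serpina3g, P2rx1, Spns2, Cox4i2, Ncf1, Emilin2 and Col15a1. All but Col15a1 were higher in DN2a. For the other called named genes at least 1 of these fits, most often the fit without DN2b 1, did not make the call. Blk, Gbp6 and Snai3, which were at the floor in all DN2a libraries, fell under the filter when either DN2b library was left out and were not tested there. Where nothing says that samples are separate cultures, p-values measure the spread between these samples, which may be technical.

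The markers of the stages separated the libraries (plot of marker genes by library). Kit, the stem cell factor receptor, stood at 64.6, 90.1, 92.7 and 70.3 FPKM in DN2a 1 to 4 and at 13.0 and 40.1 FPKM in DN2b 1 and 2. Every DN2a library was above both DN2b libraries, and DN2b 1 was lowest. The log2 difference was 1.73 ± 0.40 (SE; limma adjusted p = 0.0345), and Kit is the marker that separates the stages in the gates stated for the Cre-treated cultures. Gfi1b, a zinc-finger repressor of stem, erythroid and megakaryocyte precursors, stood at 23.0, 16.3, 16.1 and 16.5 FPKM in DN2a and at 0.1 and 0.213 FPKM in DN2b, where 0.1 is the lowest value the table holds. Its difference was 4.02 ± 0.21 (adjusted p = 0.000379). Itga2b, the integrin alpha IIb chain known as CD41, stood at 108.3, 99.5, 80.7 and 97.0 FPKM in DN2a and at 1.42 and 0.1 FPKM in DN2b. Both genes were near or at the floor in DN2b and high in all 4 DN2a libraries, and Itga2b had a difference of 5.89 ± 0.31 (adjusted p = 0.000379). In these bulk samples a lower value cannot tell fewer expressing cells from less RNA per cell.

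Cd3e, a signalling chain of the CD3 complex, stood at 21.9, 0.1, 0.997 and 0.1 FPKM in DN2a and at 161.2 and 67.0 FPKM in DN2b. DN2a 1 was the highest of its group, well above the other three, and still below both DN2b libraries. The difference was -5.27 ± 1.20 (adjusted p = 0.0334). Ptcra, the invariant pre-TCR alpha chain, stood at 11, 29.5, 5.05 and 5.28 FPKM in DN2a and at 161.5 and 51.9 FPKM in DN2b. The groups did not overlap, and the difference was -3.09 ± 0.72 (adjusted p = 0.0351). Each of Kit, Cd3e and Ptcra kept its call in 1 of the 6 fits that left out a library, Kit without DN2b 2, Cd3e without DN2a 1 and Ptcra without DN2a 2. The largest adjusted p-values were 0.181, 0.212 and 0.23.

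**Figure D1:**
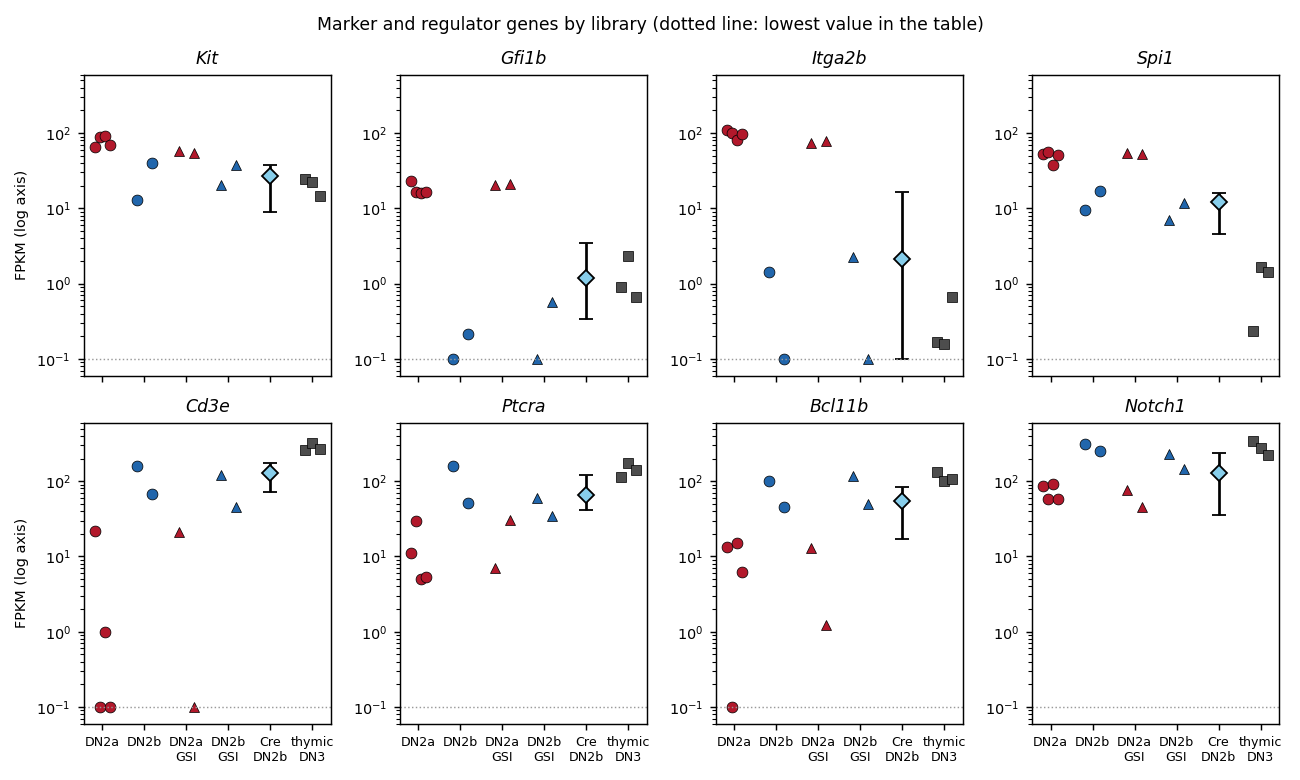
FPKM on a log axis of 8 genes in the 4 DN2a and 2 DN2b libraries (circles), the 2 GSI-treated DN2a and 2 GSI-treated DN2b libraries (triangles), 8 Cre-transduced control DN2b libraries (diamond at the median, bar from lowest to highest) and 3 ex vivo thymic DN3 controls (squares). Gfi1b is between 16.1 and 23.0 FPKM in untreated DN2a and at most 0.213 in untreated DN2b, while Cd3e runs the other way.

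Promoter matches were listed for the markers Gfi1b, Itga2b, Cd3e and Ptcra, and not for Kit. Of these promoters, those of Itga2b and Ptcra, 1 higher and 1 lower in DN2a, are shown because they match the 1 E-box form searched. The E-box is the motif of E proteins such as the product of Tcf12, and its other forms were not searched. Sequences come from RefSeq on build GRCm38.p6, 250 bases before the gene's start, minus strand, written 5′ to 3′ along the gene, with CAGCTG in capitals. That build differs from the mm9 build of the expression files, so positions are not transferable. Itga2b lies at chr11:102469884-102470133 and Ptcra at chr17:46763713-46763962.
Itga2b: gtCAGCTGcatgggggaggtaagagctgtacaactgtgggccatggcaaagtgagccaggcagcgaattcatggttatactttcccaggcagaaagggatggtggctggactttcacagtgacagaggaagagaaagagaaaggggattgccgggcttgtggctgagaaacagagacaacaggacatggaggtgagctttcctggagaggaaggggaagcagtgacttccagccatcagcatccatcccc
Ptcra: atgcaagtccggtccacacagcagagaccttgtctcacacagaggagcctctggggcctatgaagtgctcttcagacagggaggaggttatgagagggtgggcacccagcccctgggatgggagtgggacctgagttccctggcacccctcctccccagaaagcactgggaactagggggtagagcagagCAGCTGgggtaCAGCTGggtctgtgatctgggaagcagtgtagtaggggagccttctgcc

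Ptcra holds CAGCTG at -60 and -49 from the start and once more at 22 after it, and Itga2b holds it at -248. These letters read the same on both strands. They occurred in 16.3% of all 32851 RefSeq promoter windows of 250 bases before to 50 after the start, in 14.8% of those of genes tested, in 16.5% of those of genes higher in DN2a and in 17.1% of those of genes lower in DN2a. The promoters of Gfi1b and Cd3e held no match to CAGCTG or to the other motifs searched on both strands (AGATAA for GATA factors, GAGGAAGT for PU.1, CCGGAAGT for ETS factors and TGTGGTT for Runx factors). GAGGAAGT occurred in 3.76% of promoters of genes higher in DN2a, 4.26% of those of genes lower in DN2a, 3.29% of those of genes tested and 3.2% of all. In the same order AGATAA occurred in 7.71%, 7.87%, 6.67% and 11.2%, CCGGAAGT in 3.57%, 5.21%, 8.36% and 3.89%, and TGTGGTT in 3.38%, 5%, 3.75% and 5.27%. A match is a description of letters and not of binding.

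Transcription factors of stem and progenitor cells were mostly higher in DN2a. Of 16 tested, 10 were called higher and none lower, beside 4.23% and 9.23% of all genes tested, with a median difference of 1.46 against -0.07 for all genes. The called genes were Gfi1b, Nfe2, Mycn, Hhex, Spi1, Erg, Tal1, Gata2, Bcl11a and Mef2c. Mycn, a Myc family growth regulator, stood at 47.4, 36.2, 36.9 and 40.9 FPKM in DN2a and at 5.91 and 6.74 FPKM in DN2b. Spi1, which encodes the ETS factor PU.1 of myeloid and lymphoid progenitors, stood at 52.0, 55.5, 38.2 and 51.5 FPKM in DN2a and at 9.63 and 16.8 FPKM in DN2b. Both genes were high in every DN2a library with no overlap, with differences of 2.49 ± 0.18 (adjusted p = 0.00147) for Mycn and 1.86 ± 0.25 (adjusted p = 0.0116) for Spi1.

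Nfe2, a partner of erythroid and megakaryocyte gene expression, was between 120.1 and 135.0 FPKM in DN2a and at 4.9 and 53.9 FPKM in DN2b. DN2b 1 was far below DN2b 2, and the difference of 2.81 ± 0.74 only just passed (adjusted p = 0.0479). Hhex, a homeobox factor of blood progenitors, was between 23.8 and 35.3 FPKM in DN2a and at 6.63 and 7.89 FPKM in DN2b (difference 1.92 ± 0.20, adjusted p = 0.00628). Bcl11a, the paralogue of Bcl11b, was between 18.9 and 27.5 FPKM in DN2a and at 9.55 and 10.3 FPKM in DN2b, a difference of 1.17 ± 0.19. Lyl1, a basic helix-loop-helix progenitor factor, had a difference of 1.59 ± 0.43 and missed the threshold (adjusted p = 0.0528). Hoxa7, Hoxa9 and Zfpm1, which also belong to progenitor programmes, had differences of -0.05, 0.22 and 0.00 and were not called, so the group did not move as a block. Called members numbered 4 without DN2a 4 and 2 without DN2b 1, and 8 or 9 without each of the other libraries.

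Progenitor surface genes were divided. Of 14 tested, 6 were higher (among them Kit, Cd44, Cd63, Cd9 and Csf2rb) and Cd27 was lower, beside 4.23% higher and 9.23% lower of all genes tested, and the median difference was 0.54. Cd44, the hyaluronan receptor that cells lose on the way to DN3, stood at 25.6, 33.5, 21.0 and 25.4 FPKM in DN2a and at 1.71 and 7.71 FPKM in DN2b. DN2b 1 was the lower of its pair here as for Kit, and the difference was 2.48 ± 0.44 (adjusted p = 0.0205). Cd27, a tumour necrosis factor receptor family member that the study used to enrich progenitors, stood at 26.7, 18.9, 78.4 and 47.8 FPKM in DN2a and at 185.5 and 144.9 FPKM in DN2b (difference -2.11 ± 0.51, adjusted p = 0.039). Flt3, the receptor of the Flt3L in the medium, was between 2.46 and 3.4 FPKM in all 6 libraries. The 6 higher calls came to 1 without DN2a 4 and to 0 without DN2b 1.

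A few megakaryocyte and erythroid genes were called, and they were not the genes that define the mature cells. Of 7 megakaryocyte genes tested, 3 were higher in DN2a, among them Itga2b and F2r (the thrombin receptor), and none was lower, beside 4.23% higher and 9.23% lower of all genes tested. F2r was between 15.8 and 26.1 FPKM in DN2a and at 2.76 and 6.05 FPKM in DN2b. The platelet genes Pf4, Ppbp and Gp9 were under 1 FPKM in all 6 libraries. Gata1, the master factor of both lineages, was lower in every DN2a library (2.45 to 3.07 FPKM) than in DN2b (4.44 and 6.86 FPKM). It was not called (adjusted p = 0.0547). With the 8 Cre-transduced DN2b libraries in place of DN2b, Gata1 was called lower (difference -1.62 ± 0.18, limma adjusted p = 6.73e-05). Without DN2b 1 Itga2b alone of the 3 kept its call. The summed level of the 10 list genes in the table was 134.4 to 145.1 FPKM in DN2a and 18.5 and 37.8 FPKM in DN2b. Most of that gap was Itga2b, which alone gave 80.7 to 108.3 FPKM in DN2a and 1.42 and 0.1 FPKM in DN2b. The sum therefore does not describe the list as a whole.

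Hbb-b2, an adult beta-globin gene, stood at 1331.3, 1319.8, 988.9 and 1268.5 FPKM in DN2a and at 37.6 and 55.5 FPKM in DN2b. All DN2a libraries were far above both DN2b libraries, with a difference of 4.71 ± 0.22 (adjusted p = 0.000293). Its close copy Hbb-b1 was also called higher, between 4.07 and 10.1 FPKM in DN2a and 1.61 and 0.578 FPKM in DN2b, and the authors' counting may have split reads between these copies. The alpha-globin genes Hba-a1 and Hba-a2 reached at most 1.31 and 3.26 FPKM in any of the 6 libraries. Alas2, the erythroid enzyme of haem synthesis, reached at most 1.77 FPKM in them. Trf, which encodes the iron carrier transferrin, stood at 43.6, 33.8, 75.7 and 21.2 FPKM in DN2a and at 0.1 and 4.07 FPKM in DN2b (difference 4.09 ± 0.66, adjusted p = 0.0169). Tfrc, its receptor, was between 42.2 and 90.8 FPKM throughout and was not called. Without DN2b 1 the call of Hbb-b2 alone held, and without DN2a 4 or DN2b 2 that of Hbb-b1 was lost.

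Myeloid genes were partly higher in DN2a. Of 14 tested, 6 were called higher and none lower (among them Tyrobp, Prtn3, Fcgr3, Mpo and Cebpb), beside 4.23% and 9.23% of all genes tested, with a median difference of 0.96. Tyrobp, the ITAM adaptor DAP12, stood at 139.6, 152.0, 205.4 and 190.9 FPKM in DN2a and at 0.1 and 10.1 FPKM in DN2b (difference 5.61 ± 0.78, adjusted p = 0.012). Fcgr3, a low-affinity IgG receptor, stood at 11.6, 27.8, 38.1 and 22.2 FPKM in DN2a and at 0.1 and 2.38 FPKM in DN2b. Tyrobp and Fcgr3 were both at the floor in DN2b 1 and detected in DN2b 2. Fcer1g, the common gamma chain that pairs with Fcgr3, was between 106.9 and 214.3 FPKM in DN2a and at 0.1 and 101.5 FPKM in DN2b, and the gap between the DN2b libraries left it uncalled (adjusted p = 0.122).

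The granule genes Mpo and Prtn3, expressed in granulocyte progenitors, ran in the opposite order within DN2b. Mpo was between 38.1 and 52.9 FPKM in DN2a and at 10.8 and 0.688 FPKM in DN2b 1 and 2, and Prtn3 was between 18.7 and 35.4 FPKM in DN2a and at 3.37 and 0.1 FPKM in DN2b. The other granule genes Elane and Ctsg reached at most 0.701 and 3.67 FPKM, and the granulocyte regulator Cebpa at most 0.662 FPKM. Of the 18 myeloid genes in the table, Elane, Cebpa, Ly86 and Csf3r were under 1 FPKM in all 6 libraries. The summed level of the 18 genes was 435.9 to 617.6 FPKM in DN2a and 65.6 and 179.7 FPKM in DN2b. Most of the DN2a level came from Tyrobp (139.6 to 205.4 FPKM) and Fcer1g (106.9 to 214.3 FPKM). This sum therefore does not describe the list as a whole. Whether other cells in the sorts contribute was not tested. Ncf1, a subunit of the phagocyte NADPH oxidase that is not on the list, was between 35.0 and 41.7 FPKM in DN2a against 5.03 and 6.25 FPKM in DN2b. Called myeloid genes numbered 3 without DN2a 4 and 3 without DN2b 1.

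Single genes of other lineages were also called, beside 4.23% higher and 9.23% lower of all genes tested. Among mast and basophil genes Gata2 and Srgn, a granule proteoglycan, were higher (2 of 5 tested), while Cpa3, the mast cell carboxypeptidase, ranged from 75.0 to 469.4 FPKM in DN2a and overlapped with 97.4 and 237.8 FPKM in DN2b. Among 4 dendritic-cell genes Itgax (CD11c) was higher, at 2.83 to 4.41 FPKM against 0.84 and 1.13 FPKM. Among 5 B-cell genes Btk, a kinase shared with myeloid cells, was higher and Blk, a Src family kinase, was lower. Blk stood at the floor of 0.1 FPKM in all 4 DN2a libraries and at 3.76 and 3.33 FPKM in DN2b (adjusted p = 0.00176), and Cd79a and Ebf1 were under 1 FPKM throughout. Among 12 innate lymphoid and NK genes 1 was called, Zbtb16, the innate-like factor PLZF, at 8.78, 11.5, 20.5 and 17.0 FPKM in DN2a and 0.1 and 4.85 FPKM in DN2b (difference 2.54 ± 0.64, adjusted p = 0.0423). Its 2 DN2b values differed widely, and the call held in 1 of the 6 fits that left out a library, the fit without DN2b 2. Without DN2b 1 no call was made in these 4 lists, where Blk was not tested. Gzma, a granzyme, was at 1030.8 FPKM or more in all 6 libraries.

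**Figure D2:**
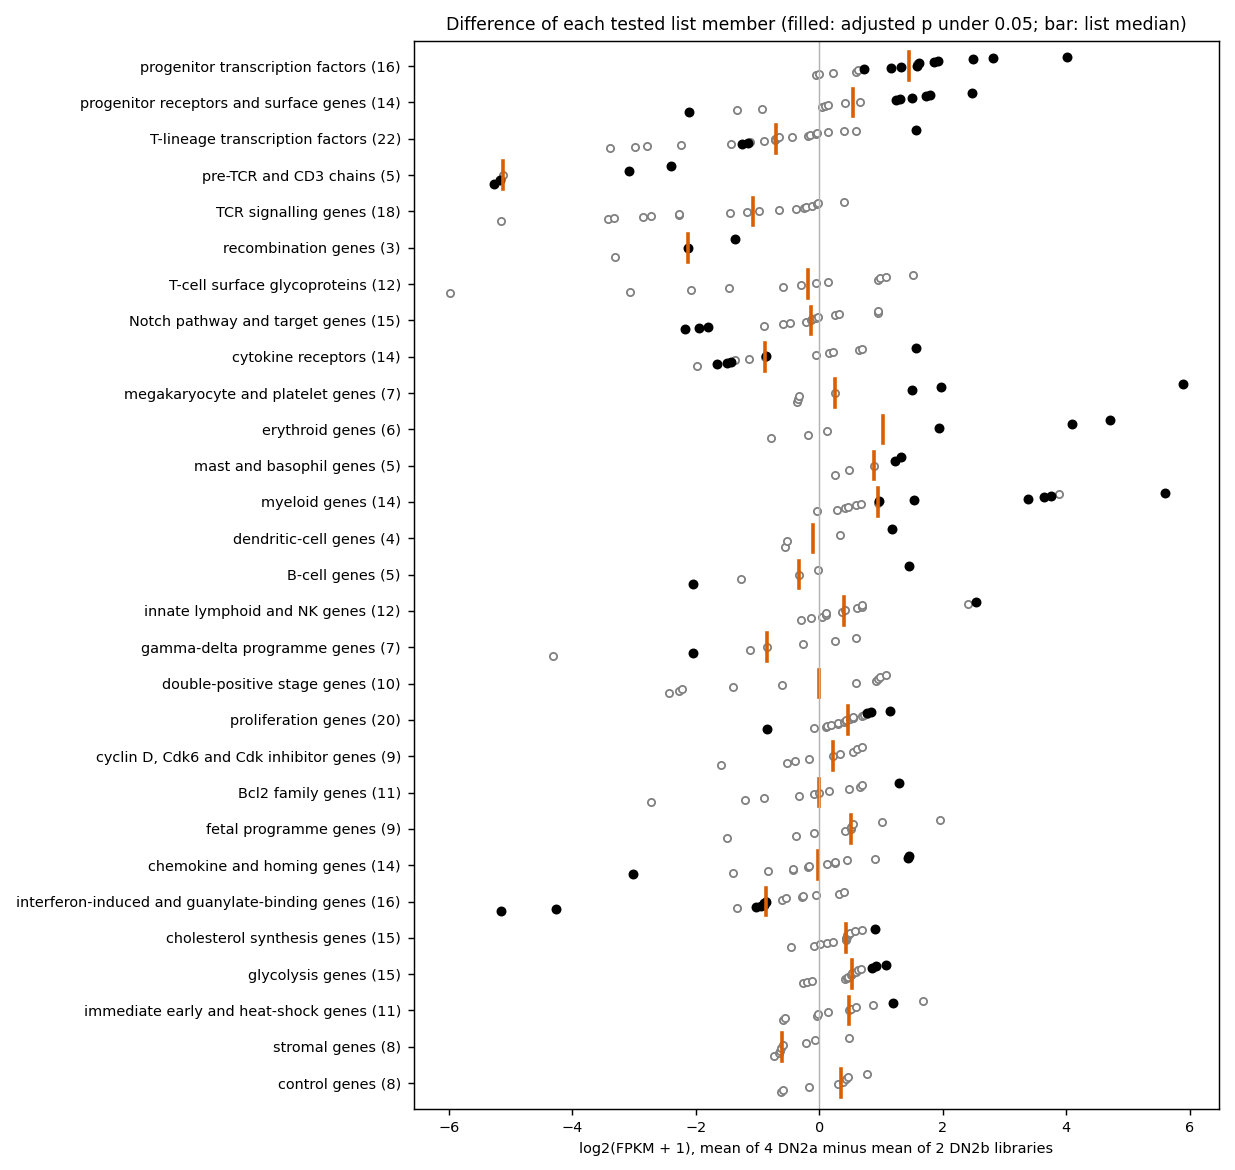
Difference in mean log2(FPKM + 1), 4 DN2a minus 2 DN2b libraries, for each tested member of 29 gene lists, with the number tested in brackets, filled points for genes with a limma adjusted p under 0.05 and a bar at each list's median. Progenitor transcription factors, with a median of 1.46, lie to the right and pre-TCR and CD3 chains, with a median of -5.12, to the left.

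T-lineage transcription factors were called at about the share of all genes. Of 22 tested, 2 were lower in DN2a (Patz1 and Tcf12) and 1 was higher (Zbtb7b), beside 9.23% lower and 4.23% higher of all genes. The median difference was -0.70. In all, 8 lay wholly below the DN2b libraries and 1 wholly above, beside 27.1% and 18% of all genes. With the 8 Cre-transduced DN2b libraries in place of DN2b, 9 were called lower and 1 higher, beside 1109 and 1451 of 13999 genes. Bcl11b itself stood at 13.3, 0.1, 15.1 and 6.27 FPKM in DN2a and at 100.4 and 45.6 FPKM in DN2b. The groups did not overlap, but DN2a 2 at the floor widened the spread, and the difference of -3.39 ± 1.03 missed the threshold (adjusted p = 0.0693). Bcl11b was called with the column letter held as a term (difference -4.12 ± 0.64, limma adjusted p = 0.0233). It was also called with the 8 Cre-transduced DN2b libraries in place of DN2b (difference -2.97 ± 0.59, limma adjusted p = 0.00332). After quantile normalization it was not (limma adjusted p = 0.0761). Tcf12, the E protein HEB, stood at 36.4, 53.6, 46.4 and 32.0 FPKM in DN2a and at 83.8 and 104.5 FPKM in DN2b (difference -1.16 ± 0.23, adjusted p = 0.0273). Patz1, a zinc-finger factor also called MAZR, was between 75.7 and 142.9 FPKM in DN2a and at 224.6 and 222.2 FPKM in DN2b. Without DN2a 4 or DN2b 1 none of the 3 calls held, and without DN2b 2 only that of Zbtb7b did.

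Tcf7, the HMG factor TCF-1 that starts the T programme, was already high in DN2a, at 342.6, 204.2, 485.1 and 273.2 FPKM, and stood at 560.2 and 421.8 FPKM in DN2b. These ranges overlapped, and the difference of -0.65 ± 0.34 was not called (adjusted p = 0.223). Gata3, a zinc-finger factor needed from the earliest T stages, was between 28.9 and 44.7 FPKM in DN2a and at 37.7 and 37.1 FPKM in DN2b, a difference of -0.15 ± 0.20. Runx1 and Ikzf1, factors shared by many blood lineages, had differences of -0.03 ± 0.25 and 0.14 ± 0.22. Ets1, a later T-lineage ETS factor, was at 20.4, 6.66, 13.4 and 0.1 FPKM in DN2a and at 97.1 and 31.1 FPKM in DN2b, and its difference of -2.98 ± 1.12 was not called (adjusted p = 0.116).

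Of the 5 pre-TCR and CD3 chains, Cd3e, Ptcra, Cd3g and Cd247 were lower in DN2a, beside 9.23% of all genes tested, and the median difference was -5.12. Cd247, the CD3 zeta chain, stood at 0.1, 0.1, 8.49 and 0.1 FPKM in DN2a and at 107.2 and 42.4 FPKM in DN2b (difference -5.18 ± 0.93, adjusted p = 0.0212). Cd3g, the CD3 gamma chain, was already detected in every DN2a library at 175.5, 438.8, 114.4 and 73.1 FPKM and stood at 894.9 and 794.9 FPKM in DN2b (difference -2.40 ± 0.62, adjusted p = 0.0466). Cd3g was thus the most abundant chain in DN2a, at a level per length far above that of Cd3e and Cd247. Cd3d, the delta chain, stood at 15.4, 42.0, 0.1 and 0.1 FPKM in DN2a and at 237.1 and 147.9 FPKM in DN2b and was not called (difference -5.12 ± 1.52, adjusted p = 0.0646). With the column letter held as a term Cd3d was called (limma adjusted p = 0.025), while Ptcra and Cd3g were not (limma adjusted p = 0.0691 and 0.0577). Cd3d was also called with the 8 Cre-transduced DN2b libraries in place of DN2b (limma adjusted p = 0.00033). Calls in this list numbered 2 without DN2a 1, 4 without DN2a 2 and 1 without DN2a 3. Without DN2a 2 the 4 calls held Cd3d in place of Cd3e. No call was made in this list without DN2a 4, DN2b 1 or DN2b 2.

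Genes downstream of the receptor gave no call among 18 tested, beside 9.23% called lower of all genes tested. Their median difference was -1.07, and 9 of them were lower in every DN2a library than in both DN2b libraries, beside 27.1% of all genes. With the column letter held as a term 5 were called lower, beside 836 of all 13364 genes. With the 8 Cre-transduced DN2b libraries in place of DN2b, 10 were lower and 1 higher, beside 1109 and 1451 of 13999 genes. Lat, the membrane adaptor, stood at 49.2, 0.1, 31.6 and 0.1 FPKM in DN2a and at 384.4 and 147.0 FPKM in DN2b (difference -5.16 ± 1.70, adjusted p = 0.0834). Lck, the kinase that phosphorylates CD3, was present in all libraries, at 325.0, 96.8, 182.6 and 132.4 FPKM in DN2a and 668.9 and 310.8 FPKM in DN2b. DN2a 1 exceeded DN2b 2 for Lck, so the groups overlapped, and it was not called (adjusted p = 0.0927). Fyn, a Src family kinase, Lcp2, an adaptor, and Txk, a Tec family kinase, had differences of -0.21, -0.03 and -0.02.

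Rag1 and Rag2, the recombinase subunits that cut receptor gene segments, were lower in DN2a and detected in all of them. Rag1 stood at 41.8, 44.4, 23.1 and 16.4 FPKM in DN2a and at 184.5 and 91.5 FPKM in DN2b (difference -2.12 ± 0.45, adjusted p = 0.0302). Rag2 was between 9.62 and 20.4 FPKM in DN2a and at 49.1 and 32.8 FPKM in DN2b (difference -1.37 ± 0.31, adjusted p = 0.0327). Dntt, the polymerase that adds bases at joints, stood at 51.6, 0.1, 0.1 and 0.1 FPKM in DN2a and at 452.8 and 0.804 FPKM in DN2b, and was not called (adjusted p = 0.368). The Rag calls were both lost without DN2a 3, DN2a 4, DN2b 1 or DN2b 2. T-cell surface glycoproteins gave no call among 12 tested: Thy1, a marker of T-lineage cells, stood at 54.5, 0.1, 47.7 and 0.1 FPKM in DN2a and at 659.2 and 346.1 FPKM in DN2b (difference -5.98 ± 1.80, adjusted p = 0.0667). With the 8 Cre-transduced DN2b libraries in place of DN2b, Thy1 was called (difference -6.42 ± 0.91, limma adjusted p = 0.00033). With the column letter held as a term it was not (limma adjusted p = 0.0855). Il2ra, the CD25 chain used in the gate, was between 206.3 and 457.3 FPKM in all 6 libraries and was not called.

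**Figure D3:**
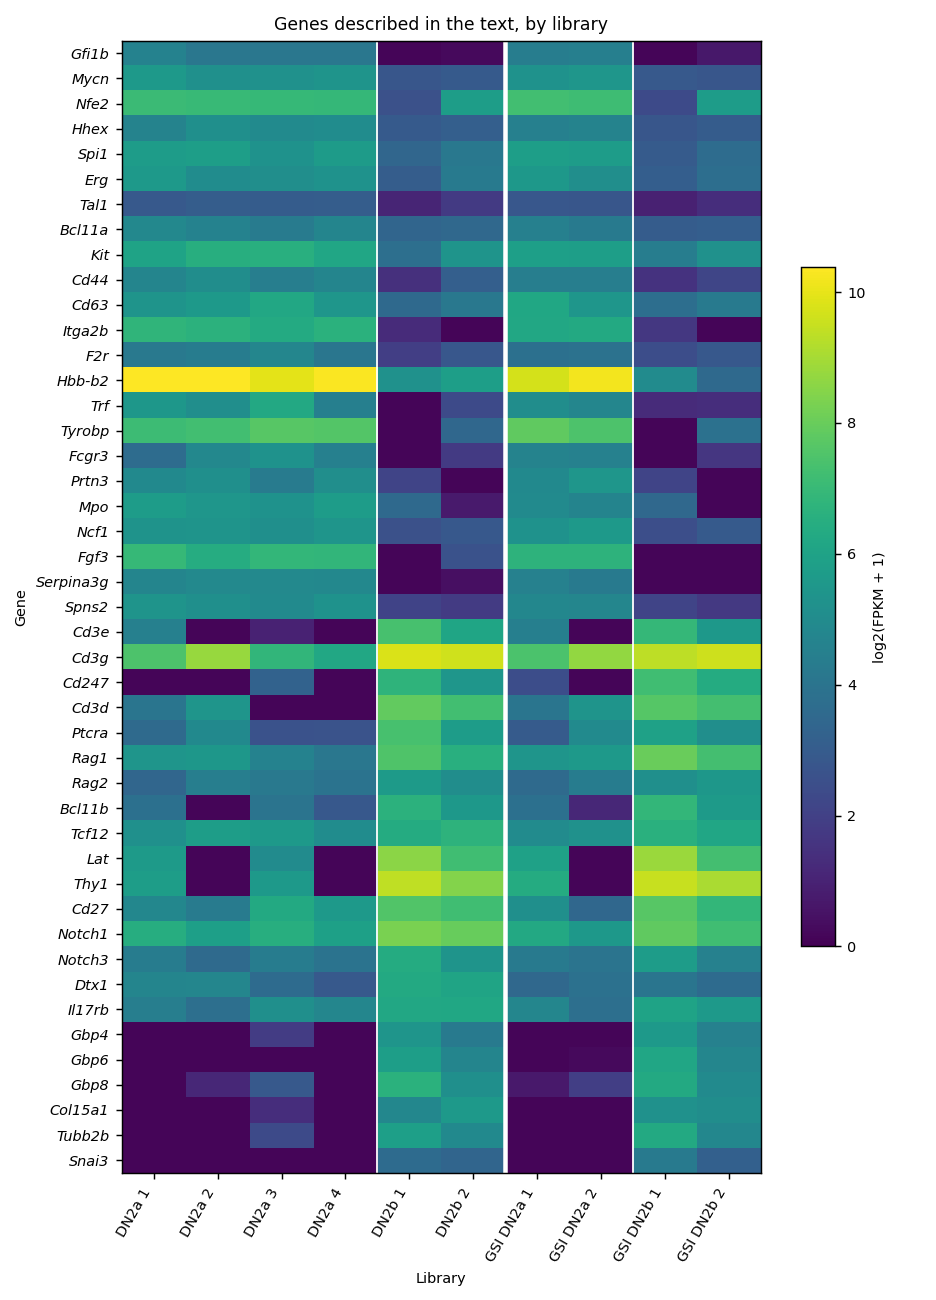
log2(FPKM + 1) of 45 genes described in the text (rows) in the 4 DN2a and 2 DN2b libraries and in the 2 GSI-treated libraries of each stage (columns), with white lines between groups. The upper 23 genes are brighter in DN2a, as Hbb-b2 with 988.9 FPKM or more, and the lower 22 are brighter in DN2b, as Notch1 with 251.8 FPKM or more.

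Notch1 and Notch3 were lower in DN2a, and the receptor Notch2 was not called (difference 0.32 ± 0.21, adjusted p = 0.32). Of 15 Notch pathway and target genes tested, Notch1, Notch3 and Dtx1 were lower and none was higher, beside 9.23% and 4.23% of all genes tested, and the median difference was -0.13. Notch1, the main receptor of T-cell precursors, stood at 87.3, 57.3, 91.1 and 58.1 FPKM in DN2a and at 311.0 and 251.8 FPKM in DN2b (difference -1.95 ± 0.25, adjusted p = 0.0104). Notch3, which Notch1 activity is known to induce, was between 11.1 and 19.7 FPKM in DN2a and at 82.9 and 40.4 FPKM in DN2b (difference -1.81 ± 0.34, adjusted p = 0.0229). Dtx1, a target that encodes the Deltex ubiquitin ligase, stood at 25.4, 26.2, 11.2 and 6.5 FPKM in DN2a and at 79.0 and 65.1 FPKM in DN2b (difference -2.18 ± 0.52, adjusted p = 0.0378). All 3 genes were lower in every DN2a library. Without DN2b 1 none of these 3 calls held, and without DN2a 4 only that of Notch1 did.

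Nrarp, another direct target and a feedback inhibitor of Notch, had the opposite sign. It stood at 67.2, 63.9, 37.6 and 61.4 FPKM in DN2a and at 25.2 and 31.7 FPKM in DN2b. The difference of 0.96 ± 0.26 missed the threshold (adjusted p = 0.0507). With the 8 Cre-transduced DN2b libraries in place of DN2b, Nrarp was called higher (difference 2.02 ± 0.38, limma adjusted p = 0.0022). Hes1, a repressor and direct target, was between 43.3 and 48.6 FPKM in DN2a and at 81.1 and 57.5 FPKM in DN2b (difference -0.59 ± 0.18, adjusted p = 0.0675). Lfng, the glycosyltransferase that tunes ligand binding, had a difference of 0.95 ± 0.32 and was not called, and Myc, a Notch target in T-cell precursors, one of -0.12 ± 0.25.

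Among 14 cytokine receptor genes tested, Il17rb, Il6st, Il9r and Ifngr2 were lower in DN2a and Il4ra was higher, beside 9.23% lower and 4.23% higher of all genes tested, and the median difference was -0.88. Il17rb, an IL-25 receptor chain, stood at 20.9, 13.0, 34.6 and 26.1 FPKM in DN2a and at 72.8 and 71.4 FPKM in DN2b (difference -1.65 ± 0.34, adjusted p = 0.0291). Il4ra, the IL-4 receptor alpha chain, was between 37.8 and 41.8 FPKM in DN2a and at 7.95 and 19.8 FPKM in DN2b (difference 1.57 ± 0.31, adjusted p = 0.0259). Il7r, the receptor of the IL-7 in the medium, stood at 0.1, 28.5, 32.1 and 10.7 FPKM in DN2a and at 49.4 and 33.6 FPKM in DN2b. DN2a 1 was the only library at the floor for Il7r, which was not called (adjusted p = 0.318). Among 14 chemokine and homing genes, Itgae (CD103) was lower and Ccl9 and Itgb7 (the beta chain that pairs with CD103) were higher. This stands beside the same 9.23% lower and 4.23% higher of all genes tested. Itgae stood at 0.1, 2.67, 5.61 and 2.53 FPKM in DN2a and at 19.6 and 29.6 FPKM in DN2b, whereas Itgb7 was between 57.0 and 66.0 FPKM in DN2a and at 13.2 and 37.3 FPKM in DN2b. In both lists no call held without DN2b 1 or without DN2a 4. The 5 cytokine receptor calls came to 3 without DN2a 2 and 3 without DN2a 3, and the 3 homing calls to 2 without each of DN2a 1, 2 and 3. Without DN2b 2 only Il4ra of the called cytokine receptors and only Itgb7 of the called homing genes kept their calls.

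The interferon-induced and guanylate-binding genes leaned to DN2b. Of 16 tested, 7 were lower in DN2a and none higher (among them Gbp6, Gbp4, Gbp5, Oasl2, Isg15 and Ifit2), beside 9.23% and 4.23% of all genes tested, with a median difference of -0.87. Gbp6, a guanylate-binding GTPase, was at the floor of 0.1 FPKM in all 4 DN2a libraries and at 56.1 and 25.6 FPKM in DN2b (adjusted p = 0.000574). Gbp4 stood at 0.1, 0.1, 2.64 and 0.1 FPKM in DN2a and at 42.1 and 17.9 FPKM in DN2b, and Gbp8, not on the list, at 0.1, 1.25, 6.4 and 0.1 FPKM against 98.2 and 35.1 FPKM. These are closely similar family members, and the authors' counting may have split reads among them. Their relatives Gbp2, Gbp3 and Gbp7 were not called, with differences of -0.26, 0.40 and -0.05. The 7 calls came to 3 after quantile normalization, to 4, 2, 4 and 2 without DN2a 1, 2, 3 and 4, to 0 without DN2b 1 and to 1 without DN2b 2, with Gbp6 not tested in these last fits.

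A few cell cycle genes were called. Of 20 tested, Ccnb1, Mcm3 and Cdk1 were higher in DN2a and Mki67 was lower, beside 4.23% higher and 9.23% lower of all genes tested, and the median difference was 0.47. Ccnb1, a mitotic cyclin, stood at 137.9, 161.3, 92.0 and 157.5 FPKM in DN2a and at 66.6 and 53.8 FPKM in DN2b (difference 1.15 ± 0.25, adjusted p = 0.0316). Mki67, the proliferation antigen Ki-67, was between 48.7 and 56.8 FPKM in DN2a and at 84.0 and 116.3 FPKM in DN2b (difference -0.85 ± 0.18, adjusted p = 0.0289). Of 11 Bcl2 family genes 1 was called higher, beside 4.23% of all genes tested. This was Bcl2l1, the survival factor Bcl-xL, at 34.4 to 44.2 FPKM against 14.5 and 15.9 FPKM (difference 1.30 ± 0.16, adjusted p = 0.0104). Bcl2 itself had a difference of -0.08 ± 0.30. None of the 4 cell cycle calls held without DN2a 4, without DN2b 1 or without DN2b 2, and of these 6 fits the Bcl2l1 call was lost in that without DN2b 1. Bcl2l1 was also not called within the earlier title year or with the 8 Cre-transduced DN2b libraries in place of DN2b (difference 0.17 ± 0.18, adjusted p = 0.544).

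The lists in this paragraph stand beside 4.23% higher and 9.23% lower of all genes tested. Of 15 glycolysis genes tested, Aldoa, Ldha and Tpi1 were higher in DN2a. Their differences were 1.08, 0.92 and 0.86, and quantile normalization left no call in this list. Of 15 cholesterol synthesis genes 1 was called higher and none lower, with a median difference of 0.44. The fetal programme genes gave no call among 9, with H19 between 219.0 and 875.6 FPKM in DN2a and at 242.7 and 1435.2 FPKM in DN2b. The 8 control genes gave no call, but their median difference was 0.35, and 0.18 after quantile normalization; Actb, for example, was at 1962.8 to 4110.2 FPKM in DN2a and at 1304.5 and 1876.0 FPKM in DN2b. Differences of that size are therefore also seen in genes of general use. The 3 glycolysis calls came to 1 without DN2a 2, DN2a 3 or DN2b 2 and to 0 without DN2a 4 or DN2b 1, and the cholesterol synthesis call was lost without DN2a 4, DN2b 1 or DN2b 2. Of 11 immediate early and heat-shock genes Ier2 was higher (difference 1.20 ± 0.22), with its call lost in the same fits. Blk was the 1 call among 7 gamma-delta programme genes, and 10 double-positive stage genes and 9 cyclin D, Cdk6 and Cdk inhibitor genes gave none.

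Outside the lists, the largest called differences included genes with no stated T-cell role. Fgf3, a fibroblast growth factor gene, stood at 124.7, 84.6, 115.4 and 113.3 FPKM in DN2a and at 0.1 and 5.11 FPKM in DN2b (difference 5.40 ± 0.59, adjusted p = 0.00716). Serpina3g, an inhibitor of intracellular proteases, stood at 25.3, 28.8, 28.9 and 27.5 FPKM in DN2a and at 0.1 and 0.329 FPKM in DN2b (difference 4.56 ± 0.18, adjusted p = 0.000124). Spns2, a sphingosine-1-phosphate transporter, was between 30.1 and 40.3 FPKM in DN2a and at 3.26 and 2.49 FPKM in DN2b. These 3 genes were even across the DN2a libraries. Nrgn, a calmodulin-binding protein, P2rx1, an ATP-gated channel, Cox4i2, a respiratory chain subunit, Gna15, a G protein alpha subunit, Upp1, a uridine phosphorylase, Fes, a tyrosine kinase, Ccl5, a chemokine, and Emilin2, an extracellular matrix protein, were higher by 2.55 to 3.82 on the log2 scale.

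In the other direction, Col15a1, a collagen, stood at 0.1, 0.1, 1.55 and 0.1 FPKM in DN2a and at 27.1 and 47.6 FPKM in DN2b (difference -4.77 ± 0.41, adjusted p = 0.00362). Tubb2b, a beta-tubulin, stood at 0.1, 0.1, 4.09 and 0.1 FPKM in DN2a and at 57.0 and 29.6 FPKM in DN2b (difference -4.71 ± 0.67, adjusted p = 0.0122). DN2a 3 was the one DN2a library above the floor for both genes, as it was for Gbp4 and Cd247. Snai3, a Snail family repressor, was at the floor in all 4 DN2a libraries and at 11.5 and 9.36 FPKM in DN2b (adjusted p = 0.000358). Slc16a5, a monocarboxylate transporter family member, Pld4, Tecpr1, Ptprf, a receptor tyrosine phosphatase, Pik3r5, a regulatory subunit of PI3-kinase gamma, Ybx2, Ilvbl and Nrp1, neuropilin 1, had differences between -4.29 and -3.38.

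The 2 DN2b libraries differed about as much as pairs of DN2a libraries. On the log2(FPKM + 1) scale 196 of 13364 genes differed by 4-fold or more between them, against 49 to 267 for pairs of DN2a libraries and 240 to 718 for pairs of unlike stage. Among the largest differences, selected after the values were seen, were Dntt (452.8 in DN2b 1 and 0.804 FPKM in DN2b 2), the chemokine Cxcl12 (20.5 and 0.1 FPKM), which is on the stromal list, Cd8b1 (19.8 and 0.1 FPKM), the thymus-homing receptor Ccr9 (40.5 and 1.35 FPKM) and Txnip (27.8 and 0.1 FPKM) in one direction. In the other were Fcer1g (0.1 and 101.5 FPKM), Ifitm1 (22.1 and 1066.3 FPKM), Cd7 (0.1 and 42.7 FPKM) and Ccr7 (0.1 and 31.4 FPKM). DN2b 1, the library titled DN3, thus had the lower Kit, Cd44, Nfe2 and Fcer1g and the higher Cd3e, Ptcra, Bcl11b and Rag1 of the pair. Against DN2a 1 to 4 DN2b 1 differed in 641, 718, 457 and 588 genes and DN2b 2 in 412, 438, 240 and 330. Stromal genes were also highest in DN2b 1, with a summed level over the 11 in the table of 61.7 FPKM against 16.9 FPKM in DN2b 2 and 13.5 to 40.1 FPKM in DN2a, and Thbs1 was at the floor throughout; the part of stromal cells in the results was not tested.

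DN2a 3 of day 8.5 and DN2a 4 of day 4.5 were the most alike pair, with 49 genes apart by 4-fold or more. Of these 42 were higher on day 8.5, among them the T-lineage genes Thy1 (47.7 against 0.1 FPKM), Lat (31.6 against 0.1 FPKM), Themis (13.7 against 0.1 FPKM) and Ets1 (13.4 against 0.1 FPKM). Bcl11b was at 15.1 FPKM on day 8.5 and 6.27 FPKM on day 4.5, and Gfi1b was at 16.1 and 16.5 FPKM. With 1 library per day this comparison has no replicate check, and day cannot be told apart from the sort.

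Some genes differed by a letter in the table's column names (plot of genes by column letter). DN2a 1 and DN2b 1 share a letter, DN2a 2 and DN2b 2 share another, and DN2a 3 and 4 share the third. With the stage held, 57 of 13364 genes (0.427%) differed by letter in limma's moderated F test, added after the values were seen. They included Cd4 and Cd8b1, surface proteins of later thymocytes. Cd8b1 stood at 34.9 and 19.8 FPKM under the first letter, at 0.568 and 0.1 FPKM under the second and at 11 and 11.1 FPKM under the third. Dlk1, a Notch ligand relative, was at the floor in the 4 libraries of the first 2 letters and at 15.8 and 15.4 FPKM in DN2a 3 and 4. Cd3d, Zap70, Lef1 and Dntt were also among these genes. Of these, Cd3d and Zap70 also differed by stage with the letter held (differences -2.83 ± 0.47 and -1.52 ± 0.25, limma adjusted p = 0.025 for each). Lef1 and Dntt were not called by stage in that fit (limma adjusted p = 0.062 and 0.0706). What the letters stand for is not given in the sources used here, and whether they or the authors' adjustment set these values was not tested.

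**Figure D4:**
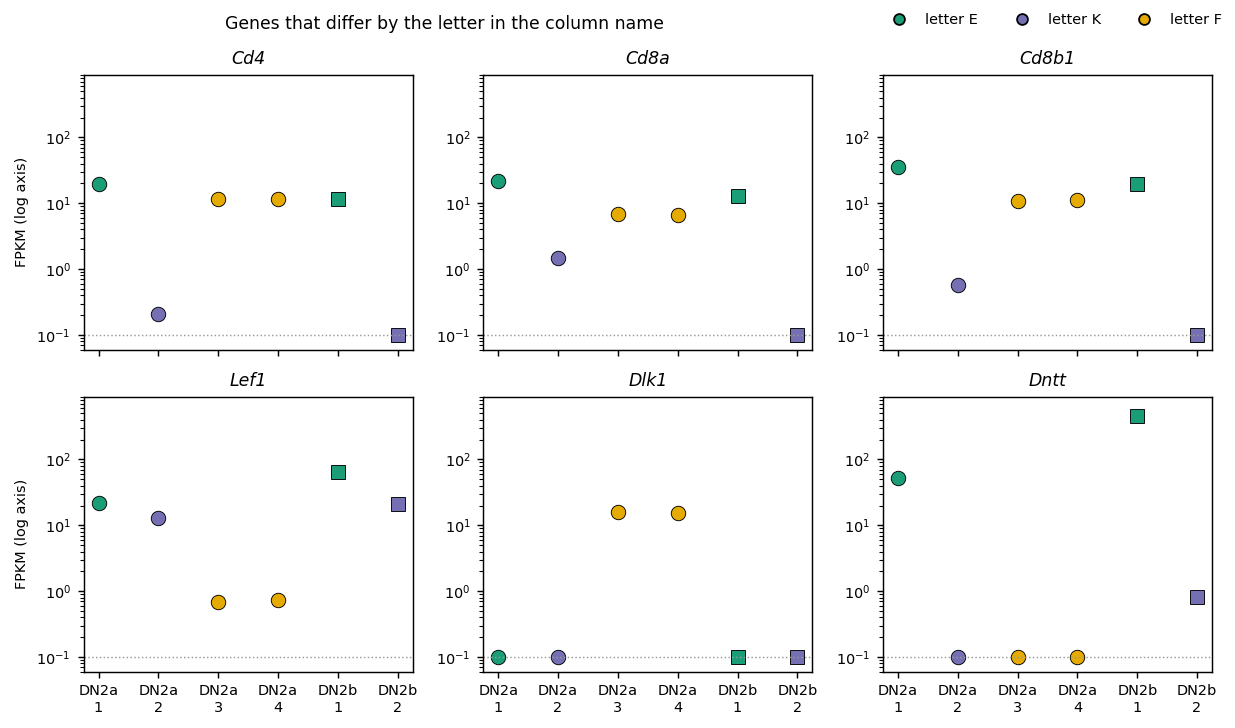
FPKM on a log axis of 6 genes in the 4 DN2a (circles) and 2 DN2b libraries (squares), coloured by the letter that the table's column names share. Cd4, Cd8a and Cd8b1 are at 11.7 FPKM or more under letter E and at 1.46 FPKM or less under letter K, whatever the stage, and Dlk1 is above the floor under letter F.

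The 8 Cre-transduced control libraries labelled DN2b, which differ among themselves in stroma (OP9-DL1 or OP9-DL4), IL-7 level, culture day and year, gave a further reference for the DN2b side. Set against the same 4 DN2a libraries in place of the untreated DN2b libraries, they gave 1451 higher and 1109 lower calls of 13999 tested, and 19 of the 82 called named genes were not called. Gfi1b was at 0.341 to 3.49 FPKM in them (median 1.19) and Itga2b at 0.1 to 16.6 FPKM (median 2.15), below every DN2a library. Bcl11b was at 16.9 to 84.4 FPKM and Cd3e at 72.2 to 176.3 FPKM, above every DN2a library. Notch1, at 35.1 to 239.4 FPKM, overlapped with DN2a, and with these libraries its difference was -0.40 ± 0.47 (adjusted p = 0.592). Dtx1, at 6.66 to 55.9 FPKM, and Il17rb, at 12.9 to 34.9 FPKM, overlapped likewise. Trf was at 0.1 to 29.3 FPKM in them and was not called (adjusted p = 0.0766). The fits share their DN2a libraries, so their results are not independent of each other.

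Under 12 hours of GSI the same stages differed in 45 of 13047 genes (0.345%), 23 (0.176%) higher and 22 (0.169%) lower in DN2a, with 2 libraries each; the count was 0 without either treated DN2a library, 31 without treated DN2b 1 and 276 without treated DN2b 2. Gfi1b stood at 20.3 and 21.2 FPKM in treated DN2a and at 0.1 and 0.57 FPKM in treated DN2b (difference 4.05 ± 0.27, adjusted p = 0.0275), and Itga2b, Mycn, Hbb-b2, Fgf3, Serpina3g, Gbp4, Gbp6, Col15a1 and Tubb2b were called in the same direction as without GSI. The treated libraries carry the title dates of DN2a 1, DN2a 2, DN2b 1 and DN2b 2. Their calls are therefore not independent of those without GSI. Dtx1 stood at 10.3 and 13.5 FPKM in treated DN2a and at 15.5 and 11.5 FPKM in treated DN2b, a difference of -0.17 ± 0.26. In limma's test of the stage by GSI interaction 0 of 13873 genes were called (741 at an unadjusted p under 0.05), so no difference between the treated and untreated stage contrasts was shown for Dtx1 or any other gene. In the 3 ex vivo thymic DN3 control libraries Cd3e was at 260.4 to 322.8 FPKM, Ptcra at 113.9 to 176.9 FPKM and Spi1 at 0.233 to 1.65 FPKM, the latter below both DN2b libraries.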

How the data were processed

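All values were FPKM, a length- and depth-scaled expression unit, from a single table that the authors had deposited after a ComBat batch adjustment, as the table's name states. The submitters' processing notes name build mm9. Aligner, quantifier and ComBat batches were not given in the sources used here; the adjustment could have moved differences either way. Poly(A) RNA libraries were made with no step listed that marks strand, per the labels' protocols, so overlapping antisense genes cannot be told apart. The table held 17754 genes, the lowest value was 0.1 FPKM, and 2.77% to 6.67% of genes per library stood there. Library totals were 672412 to 763802 FPKM. Sequencing depth is unknown, so no counting interval is given. The table has 16 more columns that could be tied to no sample, and these were left unread.

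Groups came from the stage, GSI and virus labels. A gene was tested when at least 2 fitted libraries reached 1 FPKM. Linear models on log2(FPKM + 1) used limma 3.58.1 under R 4.3.3 (trended empirical Bayes, Benjamini-Hochberg adjustment over all genes tested), and adjusted p under 0.05 is called. Fold changes on this scale understate changes of low genes. Tested on simulated data for the untreated comparison (13364 genes, 200 changed), the fit recovered 24% of genes changed by 1 and 79% of those changed by 2 on the log2 scale, and 4.6% of its calls were false. For the GSI-treated comparison (13047 genes) it recovered 0% of either.

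The members and the 30 gene lists were chosen with earlier results of these data known, so no list is independent evidence. Named genes were 10 fixed genes, up to 4 called members per list by size of difference (or the 2 most abundant where none was called), and outside the lists the 12 called genes most changed each way with a mean of at least 5 FPKM in the higher group, leaving out predicted genes, small RNAs, pseudogenes and receptor segments, 100 in all. Other list members are named to account for their list and were chosen with their values known. Each library was left out in turn; libraries were also subset or added, and fits were repeated with a replicate block, robust variances, quantile normalization, all genes kept, or a pseudocount of 0.1. Spi1 stands in the table under an older symbol. Promoters were matched by symbol to RefSeq (GRCm38.p6), with 11772 of the promoter entries belonging to genes tested. Figures were drawn with matplotlib 3.10.9. Some list members are not reported here.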

Additional observations from a re-analysis of the deposited data

Results flagged for a closer look

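Among 100 named genes, 13 had 1 of the 4 DN2a libraries far from the other 3 by Dixon's ratio at the 95% critical value; chance flags about 1 in 20 groups. For Cd247, Gbp4, Col15a1 and Tubb2b the other 3 libraries all stood at the floor of 0.1 FPKM, so any value above it would have stood out. DN2a 1 stood high for Gfi1b (23.0 FPKM) and low for Cd24a (164.8 FPKM) and Mki67 (48.7 FPKM). DN2a 2 stood low for the fetal growth factor Igf2 (0.1 FPKM). DN2a 3 stood apart in the other 9. It was high for Cd247 (8.49 FPKM), Srgn (345.7 FPKM), Gbp4 (2.64 FPKM), Ccl5 (16.2 FPKM), Col15a1 (1.55 FPKM) and Tubb2b (4.09 FPKM) and low for Nrarp (37.6 FPKM), Hbb-b2 (988.9 FPKM) and Cox4i2 (22.7 FPKM).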

How the results depend on the processing

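The main limits are 2 DN2b libraries, values already batch-adjusted by the authors, a floor of 0.1 FPKM and unknown depth. The 1799 calls became 1065 with a pseudocount of 0.1 (637 lower in DN2a), 68 within the earlier title year (21 higher, 47 lower), 3044 with 3 Cre-transduced DN2b libraries added (1122 higher, 1922 lower) and 5323 with GSI libraries added and GSI as a covariate (2012 higher, 3311 lower). The added GSI libraries share title dates with untreated ones, and that fit had no term for it. They are thus not independent replicates, and the 5323 calls may be too many. Quantile normalization left 580 lower calls, and the 8 Cre-transduced libraries in place gave 1451 higher calls. Leaving out each library gave 35 to 1406 calls, 32 to 465 higher and 3 to 941 lower. The lowest came without DN2b 1; a lone DN2b sample is then assumed to vary like DN2a. No filter (2207) and robust variances (1800) stayed within 1.5 times. The GSI-treated comparison fell from 45 calls to 1 with no filter, and leaving out each library gave 0 to 276. The stage by GSI interaction gave 0 calls under every setting run.

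With the replicate block the untreated comparison gave 1142 calls (306 higher, 836 lower) and the GSI-treated comparison 1; the interaction gave 0 with or without the block. In the untreated fit replicates 3 and 4 form 1 block, so this fit equals that with the column letter. Same-numbered samples share a title month or date and a column letter, but the labels name no shared culture or batch. Deviations from the group means correlated by 0.142 for the pair numbered 1 and 0.027 for the pair numbered 2. Unlike-numbered samples reached 0.109 (DN2a 4 with DN2b 2) and 0.071 (DN2a 3 with DN2b 2). With 2 DN2b libraries the value against one is that against the other with its sign reversed, so these values cannot establish the pairing.

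Some uncalled differences changed sign. Cd24a (0.14) became -0.11 after quantile normalization, -0.03 with the block, -0.03 within the earlier title year, -0.62 with 8 Cre-transduced libraries, -0.10 with 3 added and -0.10 with GSI libraries added. Cxcl12 (0.48) became -0.13 with the block, -0.13 within the earlier title year, -0.39 with GSI libraries added and -1.66 without DN2b 2 (2.63 without DN2b 1). H19 (-0.08) became 0.10 with GSI libraries added, 0.37 without DN2a 2 and 1.20 without DN2b 2 (-1.36 without DN2b 1). With the 8 Cre-transduced libraries Ccnd3 (0.34) became -0.16 and Gapdh (0.47) became -0.14. The cause of these changes was not tested.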
